A study of Mus musculus with 18 samples.

Results

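The response of detached mouse retina to INS37217 was compared between 24 h and 7 d after injection, as the change of each transcript between these times with the drug minus its change with saline. This quantity, the interaction, is (INS37217 7 d minus INS37217 24 h) minus (saline 7 d minus saline 24 h) on the log2 scale. It also equals the drug difference at 7 d minus the drug difference at 24 h. It was computed on the 12 arrays titled 24 h or 7 d, of 18 in the series, which also holds 6 arrays of 2 h. The groups were retinas 7 d and 24 h after a subretinal injection of 1 uL of 10 uM INS37217 in saline, and retinas 7 d and 24 h after 1 uL of saline alone. There were 3 arrays for each treatment and time. All animals were Balb/cJ mice, whose age the labels do not state, and every array held RNA pooled from more than 5 retinas. The injection itself detaches the retina, so both treatments share the detachment, and no uninjected retina was analysed here. Per the design text the retina has reattached at 24 h but is badly folded, and at 7 d the folds have gone while its function is still reduced.

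INS37217, or denufosol, activates P2Y2, a receptor for extracellular nucleotides whose activation in the pigment epithelium speeds the removal of fluid from under the retina. Type I interferon leads cells to make a set of antiviral proteins, which are transcribed through interferon-stimulated response elements (ISRE) in the promoters of many of these genes. In wound repair, macrophages clear debris, and fibroblasts and contractile myofibroblasts lay down collagen, fibronectin and other matrix proteins. After detachment, Mueller cells, the main glia of the retina, become reactive and can form scars on the retinal surfaces.

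Array 2 of the saline 7 d group has a source name that gives 2 h, although its title gives 7 d. Over all 17 other arrays of the series its values correlated at 0.9543 to 0.9945 with INS37217 7 d and at 0.9598 and 0.9941 with the other saline 7 d arrays, against 0.956 to 0.9801 with INS37217 2 h and 0.9472 to 0.979 with saline 2 h. With the 24 h arrays the correlations were 0.9636 to 0.9871 for INS37217 and 0.9719 to 0.9906 for saline, so the ranges of the groups overlap. The low ends are replicate 1 arrays. With replicates 2 and 3 of both treatments alone, the times did not overlap. The correlations were then 0.9937 to 0.9945 with 7 d, 0.9866 to 0.9906 with 24 h and 0.9766 to 0.9801 with 2 h. It was kept at 7 d as titled. Results with and without it are given below. The source names of 8 of the 9 INS37217 arrays mention saline only, and the titles were used for the groups. Array medians lay between 6.72 and 6.75 log2 units. The spread of the values differed by replicate number in every group, with an SD of 1.80 to 1.89 for replicate 1 and of 1.94 to 2.00 for replicates 2 and 3. The replicate number was a term of the model, called the block. It was set in advance for this comparison, as the numbers paired the arrays in earlier results of these data. Rod genes, which mark photoreceptors, averaged 10.90 to 11.22 across the 12 arrays, and markers of skeletal muscle averaged 5.04 to 5.31, near the dim end of a range of 2.83 to 14.15. The 3' to 5' difference of the actin control probe sets, a sign of RNA quality, was 0.46 to 0.70 in INS37217 7 d, 0.61 to 0.65 in INS37217 24 h, 0.60 to 0.70 in saline 7 d and 0.52 to 0.69 in saline 24 h.

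The promoters below are shown because the genes with an interaction below 0 were mostly interferon-induced. Each is the RefSeq sequence (GRCm38.p6) of 250 bases before to 50 after the start given in the promoter table, 5' to 3' on the gene's strand. That start is the start of the annotated gene for Rsad2 and Col3a1, and lies 14 bases inside it for Slfn4, 28 for Gbp3 and 410 for Ifit3, so the Ifit3 window lies wholly within the annotated gene. Distances are counted from the start in the promoter table. Capitals in the first 3 mark matches to an ISRE pattern, which is GAAA, any 2 bases and GAAA again, on either strand and with overlaps counted. The pattern stood in 3 of the 10 promoters found for the 11 genes with an interaction below 0 (30%), those of Rsad2, Ifit3 and Gbp3. It stood in 1 of 22 promoters of the 29 genes with an interaction above 0 (4.55%), that of Selenop, and in 3.84% of the promoters of 9887 genes on the array. Rsad2 (chr12:26456403-26456702, minus strand) has 1 match, 120 bases before the start. Ifit3 (chr19:34583279-34583578, plus strand) has 2, at 156 and 122 bases before it. Gbp3 (chr3:142559794-142560093, plus strand) has 2 that overlap, at 45 and 39 bases, and it has 2 promoters in the table. Slfn4 (chr11:83174936-83175235, plus strand), the gene of largest change in this direction, has no match in this window. Col3a1 (chr1:45311288-45311587, plus strand) is shown as a collagen gene with an interaction above 0, with capitals marking a TATA box pattern (TATAAA) 117 bases before the start. This pattern is not particular to it: it stood in 27.3% of promoters of the genes above 0, in 50% of those below 0, where it is left unmarked in Rsad2, Gbp3 and Slfn4, and in 11.9% of those on the array. Of the other patterns searched on both strands, AP-1 (TGANTCA) stood in 13.6%, 30% and 7.69%, NF-kB (GGGA, any 4 bases and CC) in 31.8%, 40% and 29.3%, GAS (TTCNNNGAA) in 0%, 20% and 8.45%, and an E-box (CATATG) in 4.55%, 0% and 2.58% of the promoters above 0, below 0 and on the array, in that order. With 22 and 10 promoters these shares rest on few genes. A match is a likeness of letters and not a measured binding site.
Rsad2: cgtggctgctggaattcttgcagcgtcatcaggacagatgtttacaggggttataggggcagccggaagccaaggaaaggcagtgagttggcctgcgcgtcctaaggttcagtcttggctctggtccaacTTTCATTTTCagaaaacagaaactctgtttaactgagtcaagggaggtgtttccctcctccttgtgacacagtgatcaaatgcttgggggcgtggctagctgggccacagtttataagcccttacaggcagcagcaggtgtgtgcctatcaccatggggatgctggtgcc
Ifit3: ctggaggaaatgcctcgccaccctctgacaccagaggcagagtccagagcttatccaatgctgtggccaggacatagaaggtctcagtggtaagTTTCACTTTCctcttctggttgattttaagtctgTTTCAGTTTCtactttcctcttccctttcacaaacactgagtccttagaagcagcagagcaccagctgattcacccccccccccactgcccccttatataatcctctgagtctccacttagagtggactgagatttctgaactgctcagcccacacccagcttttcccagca
Gbp3: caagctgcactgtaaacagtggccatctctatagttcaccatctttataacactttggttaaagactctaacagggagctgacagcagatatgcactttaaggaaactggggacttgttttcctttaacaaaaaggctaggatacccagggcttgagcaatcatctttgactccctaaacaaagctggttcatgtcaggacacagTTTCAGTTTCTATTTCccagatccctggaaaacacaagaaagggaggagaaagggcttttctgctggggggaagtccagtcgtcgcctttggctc
Slfn4: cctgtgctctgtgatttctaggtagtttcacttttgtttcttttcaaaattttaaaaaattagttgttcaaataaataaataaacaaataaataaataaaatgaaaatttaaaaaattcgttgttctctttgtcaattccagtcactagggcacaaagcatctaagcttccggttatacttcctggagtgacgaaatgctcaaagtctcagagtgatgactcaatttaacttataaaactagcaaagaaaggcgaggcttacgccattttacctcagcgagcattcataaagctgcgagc
Col3a1: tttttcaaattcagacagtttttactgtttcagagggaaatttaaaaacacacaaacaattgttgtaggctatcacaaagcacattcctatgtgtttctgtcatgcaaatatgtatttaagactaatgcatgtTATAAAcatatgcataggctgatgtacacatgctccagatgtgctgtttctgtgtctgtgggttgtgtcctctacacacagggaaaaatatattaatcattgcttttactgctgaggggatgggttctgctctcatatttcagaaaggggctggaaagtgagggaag

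Between 24 h and 7 d the difference of INS37217 from saline narrowed for interferon-induced genes and widened for genes of the collagen matrix. Of 22626 probe sets tested, 55 (0.243%) had an interaction with a limma adjusted p under 0.05. For 15 (0.0663%) the interaction was below 0, and for 40 (0.177%) it was above 0. The 15 carried 11 named genes, of which 8 are antiviral genes induced by interferon, 1 is an interferon-inducible GTPase and 2 are genes of reactive glia. The 40 carried 29 named genes, among them 5 collagen and matrix glycoprotein genes with an interaction of at least 1.48, which are Col1a1, Col1a2, Col3a1, Fbln2 and Postn. All 55 had the same sign of interaction in each of the 3 replicate numbers, as had 6924 of all 22626 probe sets. The call itself rests on the agreement of these numbers, so the shared sign adds no separate support.

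The probe sets with an interaction below 0 had their drug difference at 24 h. INS37217 minus saline was -0.26 to 0.59 at 7 d (median 0.15) and 0.61 to 2.74 at 24 h (median 1.18) over the 15 probe sets. The value of every one of them was lower at 7 d than at 24 h with INS37217, by -3.81 to -0.96, and of 14 of the 15 with saline, where the change was -1.83 to 0.34. The 40 with an interaction above 0 were of 2 kinds. In 33 of them the difference at 7 d was the larger one, at 0.37 to 3.23 at 7 d (median 0.80) and -0.36 to 1.13 at 24 h (median -0.11). In the other 7 the larger difference was at 24 h and lay below saline, at -0.02 to 0.19 at 7 d and -0.92 to -0.57 at 24 h. In whole retina, fewer cells of a type and less RNA per cell cannot be told apart. These differences are made of the same 12 arrays as the interaction and add no separate support to it.

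**Figure D1:**
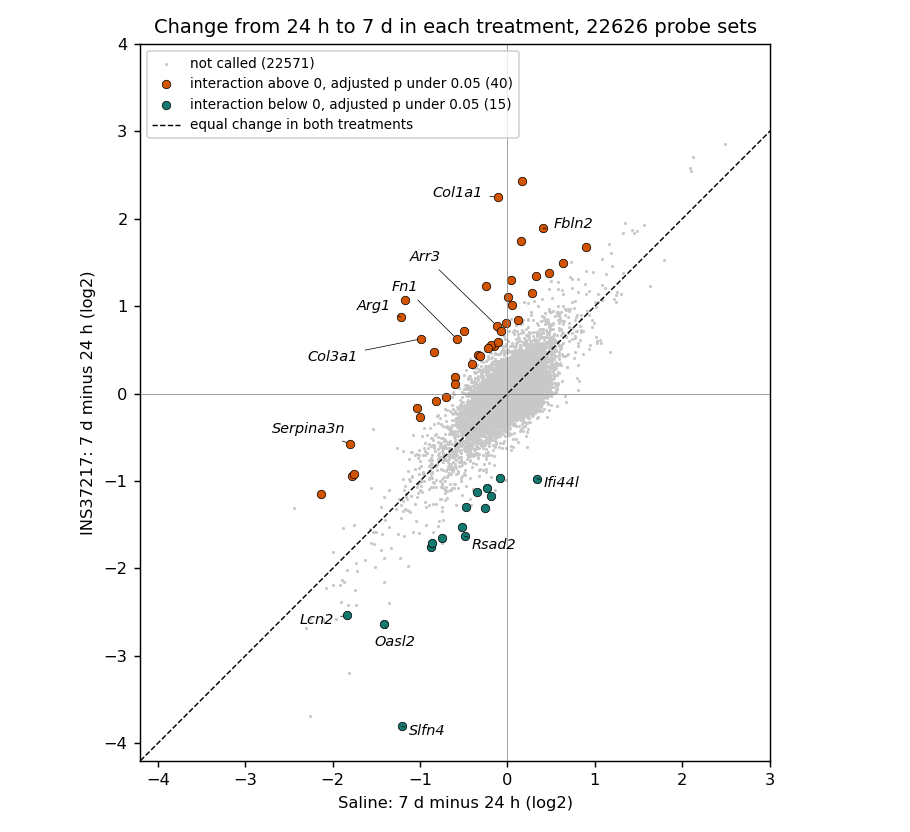
Change between 24 h and 7 d (7 d minus 24 h, log2) with INS37217 on the vertical axis and with saline on the horizontal axis, 1 point per probe set, with coloured points where the interaction had an adjusted p under 0.05. The 15 probe sets below the dashed line of equal change include Slfn4 at -3.81 with INS37217 and -1.21 with saline, and the 40 above it include Col1a1 at 2.25 with INS37217 and -0.11 with saline.

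The number of calls rested on the block and on each array. Without the block 1 probe set passed, the one for Col1a1 (adjusted p = 0.0027), and 342 had an unadjusted p under 0.05, while Slfn4 stood at an adjusted p of 0.051. Of the 55 calls, 18 passed with every one of the 12 arrays left out in turn, 14 above and 4 below 0. Without saline 7 d array 2, 38 probe sets passed, 27 above and 11 below 0, and 20 of the 30 genes named by rule kept their call. The 10 that did not were Arg1, Cd36, Parp14, Gbp3, Lcn2, Gpnmb, Mgp, Tpm2, Gpx3 and Alas2, with adjusted p of 0.051 to 0.089.

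Slfn4, a member of the Schlafen family induced by interferon in myeloid cells, had the largest interaction of all probe sets below 0. Its log2 values were 4.53, 3.65 and 3.85 in INS37217 7 d retinas, 7.65, 7.95 and 7.85 in INS37217 24 h retinas, 4.23, 3.77 and 3.59 in saline 7 d retinas, and 5.11, 5.08 and 5.03 in saline 24 h retinas. The INS37217 24 h arrays stood above all others, and both 7 d groups overlapped each other. Slfn4 fell between 24 h and 7 d by more with INS37217 than with saline, with an interaction of -2.60 (SE 0.23, limma adjusted p = 3e-05), or 6.05-fold. INS37217 minus saline was 0.15 (SE 0.16) at 7 d and 2.74 (SE 0.16) at 24 h. At 7 d its mean lay at the 7.56th percentile of all probe sets with INS37217 and at the 5.86th with saline, where RMA values are compressed and a further fall would be understated.

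The antiviral list, 40 measured genes induced by type I interferon, moved together. Of the 40, 8 had a called interaction below 0 and 0 above, where 0.0888% of 12393 genes were called below 0. The interaction was negative for 38 of 40, with a median of -0.43, against -0.01 over all genes. The median drug difference of the list was 0.05 at 7 d and 0.55 at 24 h. The mean level of the list was 6.08 to 6.29 in INS37217 7 d arrays, 7.23 to 7.34 in INS37217 24 h, 6.01 to 6.14 in saline 7 d and 6.60 to 6.67 in saline 24 h. The level at 24 h was thus higher than at 7 d in both treatments.

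Enzymes and effectors of the antiviral state came next to Slfn4. Oasl2, which belongs to the oligoadenylate synthetase family, had values of 5.52, 5.73 and 5.69 in INS37217 7 d, 8.49, 8.31 and 8.05 in INS37217 24 h, 5.36, 5.57 and 5.30 in saline 7 d, and 7.07, 6.77 and 6.64 in saline 24 h. Its interaction was -1.22 (SE 0.17, adjusted p = 0.0027), with the 24 h groups apart from each other and the 7 d groups overlapping. Rsad2 encodes viperin, an enzyme that blocks the copying of viral RNA. It had 6.93, 6.55 and 6.44 in INS37217 7 d, 8.0, 8.30 and 8.51 in INS37217 24 h, 6.71, 6.48 and 6.44 in saline 7 d, and 7.07, 7.01 and 7.02 in saline 24 h. The interaction of Rsad2 was -1.14 (SE 0.20, adjusted p = 0.019), and 2 of its 3 probe sets were called, with values of -1.14 to -0.61. Ifi44l, an interferon-induced gene of less known function, had an interaction of -1.31 (SE 0.20, adjusted p = 0.0072) on 1 of 3 probe sets, and the others reached -0.20. Its time change was -0.97 with INS37217 and 0.34 with saline (SE 0.14 each).

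Ifit3 and Ifit2 encode proteins of the same family that bind foreign RNA and stop its translation. Ifit3 had values of 6.84, 7.75 and 7.89 in INS37217 7 d, 8.56, 9.39 and 9.11 in INS37217 24 h, 6.86, 7.63 and 7.49 in saline 7 d, and 7.47, 7.91 and 8.15 in saline 24 h. Replicate 1 was the lowest array of each of these groups, and the 24 h groups did not overlap. The interaction was -1.01 (SE 0.16, adjusted p = 0.012) for Ifit3 and -0.88 (SE 0.15, adjusted p = 0.014) for Ifit2. Ifit1 of the same family stood at -0.84 (SE 0.17, adjusted p = 0.055) and did not pass. Parp14, an ADP-ribosyltransferase, and Slfn1, another Schlafen gene, both had -0.85, with adjusted p of 0.024 and 0.021. Of these 4 called genes, Ifit3 passed in 10 of the 12 single omissions, Ifit2 in 7, Parp14 in 4 and Slfn1 in 4. Slfn1 was dim, at the 5.08th to 18.3rd percentile of probe sets by group.

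Interferon-inducible GTPases and the genes of MHC class I antigen display had the same median, -0.43, over 21 genes. The interaction was negative for 20 of them. Of the 21 genes 1 was called below 0, Gbp3, where 0.0888% of all genes were. Gbp3, a guanylate-binding protein that acts against microbes inside cells, had 5.89, 6.01 and 5.89 in INS37217 7 d, 6.89, 7.57 and 7.22 in INS37217 24 h, 5.71, 5.83 and 5.77 in saline 7 d, and 6.13, 6.26 and 6.34 in saline 24 h. Its interaction was -0.82 (SE 0.16, adjusted p = 0.038) and passed in 2 of 12 omissions. B2m, the light chain of MHC class I, stood at -0.44 (adjusted p = 0.35) and the heavy chain gene H2-K1 at -0.01 (adjusted p = 1).

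**Figure D2:**
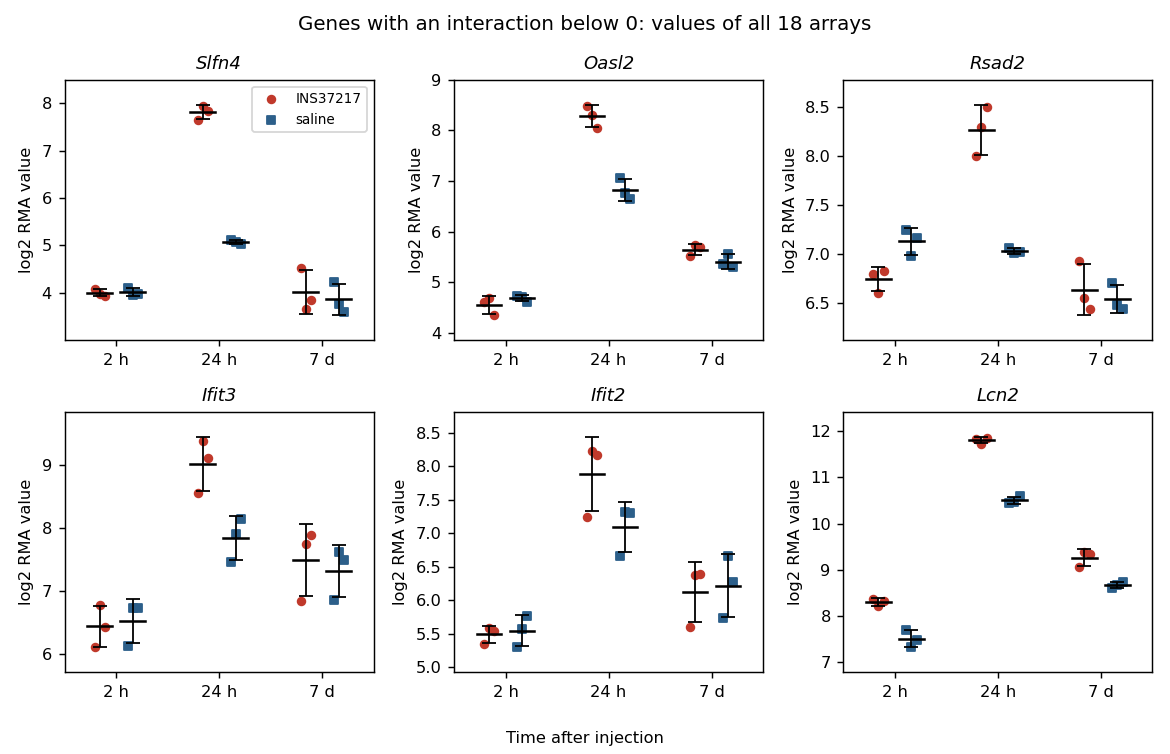
Log2 values of Slfn4, Oasl2, Rsad2, Ifit3, Ifit2 and Lcn2 on all 18 arrays by time after injection (horizontal axis), with INS37217 as red circles left of saline as blue squares, and the mean and SD of 3 arrays in black. At 24 h the INS37217 arrays stand above the saline arrays, as for Slfn4 with 7.65 to 7.95 and 5.03 to 5.11, except for Ifit2, where 7.25 to 8.23 and 6.66 to 7.32 overlap, and at 7 d the groups lie close together except for Lcn2.

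Lcn2 and Steap4, both raised in reactive glia and in inflammation, completed the named genes with an interaction below 0. Lcn2 encodes lipocalin 2, a protein that binds bacterial iron carriers. It had 9.06, 9.38 and 9.35 in INS37217 7 d, 11.82, 11.73 and 11.85 in INS37217 24 h, 8.61, 8.67 and 8.73 in saline 7 d, and 10.45, 10.47 and 10.59 in saline 24 h. The INS37217 arrays were above the saline arrays at both times, by 0.59 (SE 0.10) at 7 d and 1.30 (SE 0.10) at 24 h, so the difference was smaller but not gone. The interaction was -0.70 (SE 0.14, adjusted p = 0.037), and it passed in 0 of the 12 single omissions, where the adjusted p reached 0.13. Steap4, a metal reductase, had -0.90 (SE 0.15, adjusted p = 0.018) and passed in 5 of 12.

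The reactive glia list as a whole did not share that direction. Of 27 genes 2 were called below 0 and 1 above, where 0.0888% of all genes were called below 0 and 0.161% above. The median of the list was 0.04. Serpina3n, a secreted inhibitor of serine proteases made by reactive astrocytes and glia, was the one above. It had 10.55, 10.53 and 10.48 in INS37217 7 d, 11.14, 11.13 and 11.01 in INS37217 24 h, 9.26, 8.79 and 8.89 in saline 7 d, and 11.02, 10.72 and 10.60 in saline 24 h. Serpina3n had a lower mean at 7 d than at 24 h in both treatments, by -0.57 with INS37217 and -1.80 with saline (SE 0.10 each), which left the 7 d groups apart. The interaction was 1.23 (SE 0.15, adjusted p = 0.00072) and passed in all 12 omissions. Gfap, the intermediate filament by which reactive Mueller cells are recognised, stood at 0.51 (SE 0.14, adjusted p = 0.26).

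Genes of fibrillar collagens and scar matrix were the main group with an interaction above 0. By 1 probe set per gene, 6 of 36 measured genes were called above 0 and 0 below, against 0.161% of all genes above 0. With any probe set of a gene counted 8 were called above 0, against 29 of 12393 genes. The interaction was positive for 32 of 36, with a median of 0.42, and the median drug difference was 0.48 at 7 d and 0.07 at 24 h. The mean level of the list was 7.49 to 7.52 in INS37217 7 d, 7.07 to 7.12 in INS37217 24 h, 6.90 to 6.97 in saline 7 d and 6.92 to 7.00 in saline 24 h. The INS37217 7 d arrays thus stood above the other 3 groups.

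Type I and type III collagen, which build the fibrils of scars, had the largest values. Col1a1, the main chain of type I collagen, had 6.77, 7.11 and 7.25 in INS37217 7 d, 4.95, 4.66 and 4.78 in INS37217 24 h, 4.77, 4.68 and 4.93 in saline 7 d, and 4.90, 4.98 and 4.83 in saline 24 h. Only the INS37217 7 d arrays were high, at the 55.9th percentile of probe sets on average, and the other 3 groups overlapped at the 17.3rd to 19.9th. The interaction was 2.36 (SE 0.17, adjusted p = 2.7e-06), or 5.12-fold. The other of the 2 probe sets of Col1a1 gave 0.53 (adjusted p = 0.53), so the probe sets of this gene disagreed in size. That probe set is the brighter one over all 18 arrays, but in INS37217 7 d it averaged 5.90 against 7.04 for the called one. Col1a2, the partner chain, had 6.91, 7.70 and 7.77 in INS37217 7 d, 5.43, 4.76 and 4.90 in INS37217 24 h, 5.40, 4.89 and 5.13 in saline 7 d, and 4.98, 5.02 and 4.91 in saline 24 h. Both its probe sets were called, at 2.26 (SE 0.29, adjusted p = 0.0012) and 1.59 (adjusted p = 0.0017).

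Col3a1, the chain of type III collagen, had another course. Its values were 7.30, 7.90 and 7.59 in INS37217 7 d, 6.46, 7.24 and 7.21 in INS37217 24 h, 5.58, 5.58 and 5.72 in saline 7 d, and 6.45, 6.76 and 6.63 in saline 24 h. The change between 24 h and 7 d was 0.63 with INS37217 and -0.99 with saline (SE 0.13 each). The interaction was 1.61 (SE 0.18, adjusted p = 0.00034), and a second probe set gave 0.28 and was not called. Col5a1, a chain of type V collagen that starts fibrils, was called on 1 of 3 probe sets, at 0.97 (adjusted p = 0.027), with values down to 0.07 on the others. It lies outside the naming rule and was picked after its values were seen.

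Matrix glycoproteins that join collagen to cells had values of the same sign. Postn, periostin of healing wounds, had 7.64, 8.34 and 8.09 in INS37217 7 d, 6.68, 6.90 and 6.78 in INS37217 24 h, 6.63, 6.76 and 6.68 in saline 7 d, and 6.81, 7.10 and 6.90 in saline 24 h. Its interaction was 1.48 (SE 0.15, adjusted p = 0.00016), with the INS37217 7 d arrays above the other 3 groups, as for Col1a1. Fn1, fibronectin, had 9.38, 9.35 and 9.13 in INS37217 7 d, 8.71, 8.63 and 8.64 in INS37217 24 h, 7.97, 7.84 and 7.80 in saline 7 d, and 8.68, 8.32 and 8.35 in saline 24 h. The interaction of Fn1 was 1.21 (SE 0.14, adjusted p = 0.00034), while a dimmer probe set gave -0.07. Fbln2, fibulin 2 of elastic fibres and basement membranes, had 1.48 (SE 0.19, adjusted p = 0.0015). Bgn, the small proteoglycan biglycan, had 1.26 (SE 0.14, adjusted p = 0.00028) with 2 of 3 probe sets called. Ecm1, a glycoprotein of the matrix, had 1.22 (SE 0.16, adjusted p = 0.0022).

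Col1a1, Col1a2, Col3a1, Postn, Fn1, Fbln2, Bgn and Ecm1 each passed in all 12 single omissions. Of the list, Ccn2, a growth factor that promotes fibrosis, stood at 0.76 (SE 0.15, adjusted p = 0.054). Mmp3, a protease that cuts matrix, had the lowest value, -1.04 (adjusted p = 0.21), and Thbs2 stood at -0.51 and Tgfbi at -0.40, neither of which passed.

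**Figure D3:**
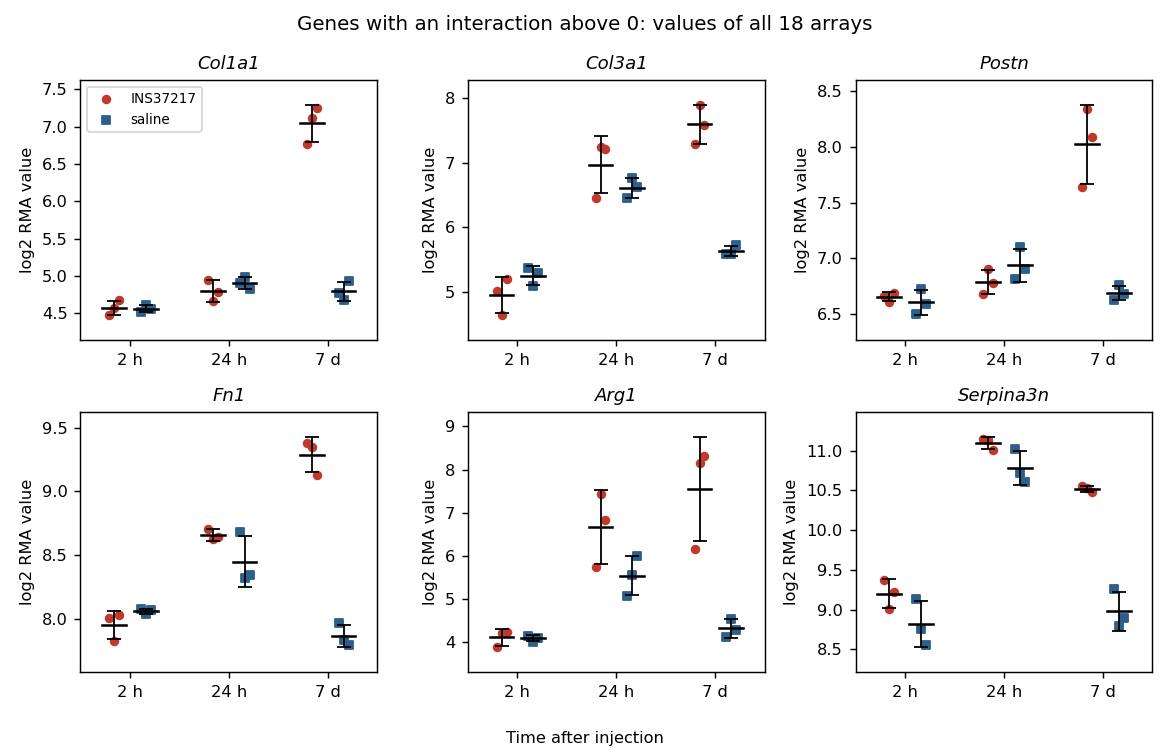
Log2 values of Col1a1, Col3a1, Postn, Fn1, Arg1 and Serpina3n on all 18 arrays by time after injection (horizontal axis), with INS37217 as red circles left of saline as blue squares, and the mean and SD of 3 arrays in black. At 7 d the INS37217 arrays stand above the saline arrays for each gene, as for Col1a1 with 6.77 to 7.25 and 4.68 to 4.93.

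Contractile genes of myofibroblasts shared the direction of the matrix. The interaction was positive for 13 of 14, with a median of 0.40. By 1 probe set per gene 1 was called above 0, against 0.161% of all genes. With any probe set counted 2 were called, against 29 of 12393 genes. Tagln, an actin-binding protein of smooth muscle and myofibroblasts, had 8.04, 8.56 and 8.81 in INS37217 7 d, 7.80, 8.10 and 8.08 in INS37217 24 h, 7.17, 7.52 and 7.70 in saline 7 d, and 8.0, 8.24 and 8.68 in saline 24 h. Its interaction was 1.32 (SE 0.15, adjusted p = 0.00034). Within each replicate number it was 1.07, 1.18 and 1.71, whereas the INS37217 7 d and saline 24 h arrays overlapped. Tpm2, a tropomyosin, had 0.79 (SE 0.15, adjusted p = 0.033) on 1 of 4 probe sets, with values down to -0.05. Acta2, the smooth muscle actin that defines myofibroblasts, stood at 0.57 (SE 0.14, adjusted p = 0.13) and did not pass.

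Fibroblast markers had a smaller median interaction than the matrix genes, 0.20 over 16 genes. Of these 10 were positive, and 1 was called above 0 by 1 probe set per gene, against 0.161% of all genes. With any probe set counted 2 were called, against 29 of 12393 genes. The mean level of the list was 7.04 to 7.09 in INS37217 7 d, 6.70 to 6.78 in INS37217 24 h, 6.81 to 6.85 in saline 7 d and 6.63 to 6.74 in saline 24 h, and the lowest member, Twist1, averaged 3.90. Serpinf1, which encodes the antiangiogenic factor PEDF, had 0.87 (SE 0.13, adjusted p = 0.008) on 1 of 2 probe sets. The brighter Serpinf1 probe set gave 0.21 (adjusted p = 0.80). Mgp, an inhibitor of calcification, had 0.67 (SE 0.13, adjusted p = 0.04) and passed in 1 of 12 omissions. Markers of endothelium and pericytes had a median of -0.04 over 19 genes, with 0 called. The part of the fibroblast markers in the values of the matrix genes was not tested.

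Wound-healing macrophage genes held a few large interactions. By 1 probe set per gene 2 of 26 were called above 0, against 0.161% of all genes. With any probe set counted 3 were called, against 29 of 12393 genes. The interaction was negative for 10 of the 26, and the median was 0.09. Among brighter probe sets alone the median was 0.58. Arg1, arginase 1 of alternatively activated macrophages, had 6.15, 8.15 and 8.32 in INS37217 7 d, 5.74, 7.42 and 6.83 in INS37217 24 h, 4.11, 4.53 and 4.28 in saline 7 d, and 5.07, 5.54 and 5.98 in saline 24 h. The INS37217 arrays spread over more than the saline arrays, with an SD of 1.21 at 7 d against 0.21 for saline 7 d, and replicate 1 was the lowest array in all 4 groups. The drug difference was 3.23 (SE 0.27) at 7 d and 1.13 (SE 0.27) at 24 h. The interaction was 2.10 (SE 0.38, adjusted p = 0.023), and it passed in 4 of 12 omissions. Gpnmb, a glycoprotein of lipid-laden macrophages and of melanosomes, had 0.71 (SE 0.14, adjusted p = 0.034). Cd36, a receptor for oxidised lipid, had 1.10 (SE 0.19, adjusted p = 0.018) on 1 of 3 dim probe sets, at the 4.93rd to 18.2nd percentile by group. The others of Cd36 reached -0.06.

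Markers shared by microglia and macrophages had 0 of 28 called and a median of 0.05. Their mean level was 6.88 to 7.08 in INS37217 7 d, 6.50 to 6.58 in INS37217 24 h, 6.59 to 6.66 in saline 7 d and 6.16 to 6.26 in saline 24 h. The INS37217 arrays were thus above saline by a like amount at both times, with median differences of 0.33 at 7 d and 0.30 at 24 h. The level of the wound-healing list was 6.12 to 6.25 in INS37217 7 d, 5.81 to 5.94 in INS37217 24 h, 5.65 to 5.82 in saline 7 d and 5.60 to 5.73 in saline 24 h.

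Neutrophil genes had a median of -0.22 over 15 genes, with 0 called and 13 negative. S100a9 and S100a8, which together form calprotectin, abundant in neutrophils, had the largest values of the list, -1.43 (SE 0.33, adjusted p = 0.11) and -1.39 (SE 0.33, adjusted p = 0.13). S100a9 averaged 5.26 in INS37217 7 d, 8.96 in INS37217 24 h, 5.08 in saline 7 d and 7.34 in saline 24 h. The level of the neutrophil list was 5.46 to 6.09 in INS37217 7 d, 6.28 to 6.47 in INS37217 24 h, 5.41 to 6.05 in saline 7 d and 5.81 to 6.04 in saline 24 h. The list thus had its highest arrays in the group in which the antiviral genes were highest, and its part in their values was not tested. Lymphocyte markers had a median of -0.20 over 15 genes with 0 called.

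Chemokines, cytokines and adhesion molecules had 0 of 31 called, with 26 negative and a median of -0.15. Ccl2, which attracts monocytes, stood at -0.65 and Cxcl1, which attracts neutrophils, at -0.67, each with an adjusted p of 0.09. Ccl6, a chemokine of macrophages, stood the other way at 1.13 (SE 0.25, adjusted p = 0.082). Complement genes had a median of 0.12 over 14 genes with 0 called. Cfb, factor B of the alternative pathway, stood at -1.02 (adjusted p = 0.09), and C3ar1, a receptor for a fragment of C3, at 0.80 (adjusted p = 0.082). MHC class II genes had a median of 0.04 over 7 genes.

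**Figure D4:**
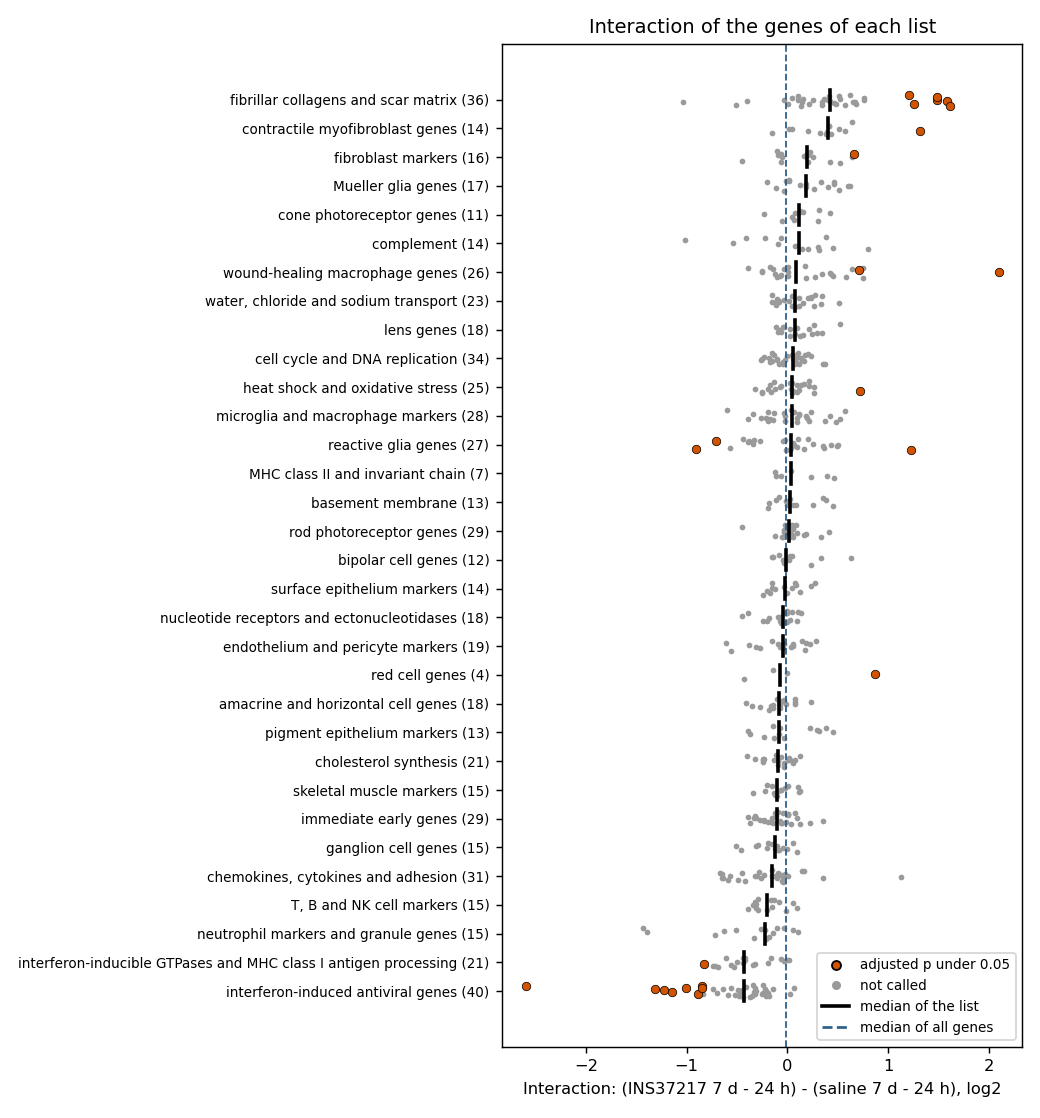
Interaction of the genes of each of the 32 lists (1 point per gene by its brightest probe set, log2, horizontal axis), with called genes in orange, the list median as a black bar, and the median of all genes, -0.01, as a dashed line. The antiviral and the GTPase and MHC class I lists have the lowest medians, -0.43 each, and the scar matrix and contractile lists the highest, 0.42 and 0.40.

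Rod genes had a median of 0.02 over 29 genes, against -0.01 over all genes, with 0 called. Of all genes 0.161% were called above 0 and 0.0888% below. A list of this size with 0 called, here or elsewhere in the text, is therefore no result about its genes. Cone genes had a median of 0.12 over 11 genes, with 9 positive. The 1 call among them was on a single probe set of Arr3, cone arrestin, which ends the light response of cones. It had 7.79, 8.18 and 8.03 in INS37217 7 d, 7.17, 7.25 and 7.26 in INS37217 24 h, 7.67, 8.29 and 8.09 in saline 7 d, and 8.08, 8.33 and 7.99 in saline 24 h. The INS37217 24 h arrays were the low ones, with a drug difference of -0.02 (SE 0.11) at 7 d and -0.91 (SE 0.11) at 24 h. The interaction was 0.89 (SE 0.16, adjusted p = 0.02), and it passed in 5 of 12 omissions. The brighter Arr3 probe set gave 0.31 (adjusted p = 0.74), and Opn1sw, the short-wave cone opsin, stood at 0.42 (adjusted p = 0.50).

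Genes of Mueller glia had 0 of 17 called, with 13 positive and a median of 0.19. Apoe, a lipid carrier, stood closest to the threshold at 0.61 (SE 0.13, adjusted p = 0.065), and Aqp4, the glial water channel, at -0.11 (adjusted p = 0.95). P2ry2, the gene of the drug's receptor, stood at -0.18 (SE 0.14, adjusted p = 0.88). It averaged 5.35 in INS37217 7 d, 5.47 in INS37217 24 h, 5.41 in saline 7 d and 5.36 in saline 24 h. These dim values lay at the 25.9th to 28.0th percentile of probe sets by group, where a change may be understated. Genes of water and ion transport had 0 of 23 called and a median of 0.08.

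Gpx3 and Alas2 were the remaining called members of lists. Gpx3, a secreted glutathione peroxidase, had 10.20, 10.12 and 10.04 in INS37217 7 d, 9.54, 9.07 and 9.23 in INS37217 24 h, 9.70, 9.38 and 9.47 in saline 7 d, and 9.68, 9.18 and 9.33 in saline 24 h. Its interaction was 0.72 (SE 0.14, adjusted p = 0.037), with the INS37217 7 d arrays above the rest. Alas2, which starts haem synthesis in red cell precursors, had 6.36, 6.28 and 6.29 in INS37217 7 d, 6.81, 6.12 and 6.50 in INS37217 24 h, 6.43, 6.0 and 6.34 in saline 7 d, and 7.53, 7.11 and 7.23 in saline 24 h. The saline 24 h arrays were the high ones, and the interaction was 0.87 (SE 0.15, adjusted p = 0.021). Each passed in 3 of 12 omissions. Only 4 of the 10 genes of the red cell list were measured by a probe set of 1 gene. Apart from Alas2, the other 3 of these had negative interactions. The list was dim, with a mean level of 5.00 to 5.67 across the 12 arrays. Probe sets of several genes are in no list. Among them are 3 called ones above 0 whose larger drug difference was also at 24 h, with interactions of 0.83, 0.98 and 0.84. In that order INS37217 minus saline was -0.78, -0.92 and -0.66 at 24 h and 0.05, 0.06 and 0.18 at 7 d. These 3 were bright, at the 98.0th to 99.9th percentile of probe sets by group.

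**Figure D5:**
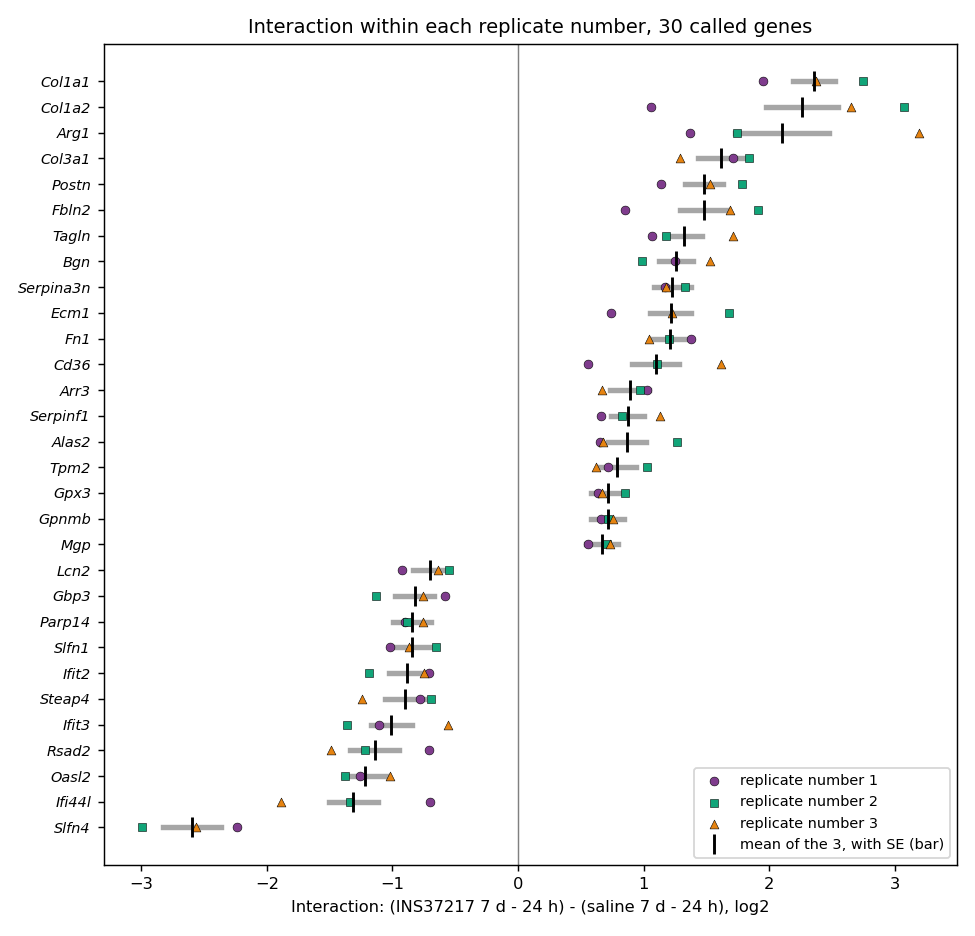
Interaction of the 30 called genes named by rule (vertical axis) within each replicate number (coloured symbols), with the mean of the 3 as a tick and its SE as a grey bar, in log2 units on the horizontal axis. All 3 symbols lie on the same side of 0 for every gene, as for Arg1 at 1.37, 1.74 and 3.19 and Slfn4 at -2.24, -2.99 and -2.56. The genes were called from these same values, so this is no separate support.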

How the data were processed

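RNA pools of mouse retina were hybridised to Affymetrix arrays. The authors deposited log2 values, computed by RMA per the submitters' processing notes; which RMA version and settings they used is not stated there. The values ran from 2.83 to 14.15 and were not normalized again in the main fit. The authors' 22690 probe sets include 64 Affymetrix controls, which were left out, and 22626 were tested. Groups came from the sample titles, and per the design text the 3 arrays of a group are biological replicates. The number of arrays limits the precision. No detection calls were used here.

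The interaction was fitted with limma 3.58.1 in R 4.3.3 (lmFit, eBayes) on 12 arrays with 4 group means and the replicate number as a block. This left 6 residual and 10.4 prior degrees of freedom. P-values were adjusted by Benjamini and Hochberg over all 22626 probe sets, and adjusted p under 0.05 is called. Every adjusted p in the text is from this fit unless another setting is named. The pairing rests on the values: with group means subtracted, arrays of one number correlated across groups at 0.525 to 0.921 (18 pairs). Replicate 1 correlated with 2 or 3 at -0.847 to -0.579, and replicate 2 with 3 at 0.47 to 0.707. The labels do not say what the numbers stand for. The fit was tested on simulated data.

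Gene names came from GEO's probe table, updated to RefSeq symbols: 20380 probe sets had 1 gene, 691 several and 1555 none. Probe sets with several or none were tested and not named. In lists a gene is its probe set of highest mean over 18 arrays. Named by rule were up to 12 genes per direction of largest interaction among the called, up to 4 called members per list (of a list with none called, 2 members of largest value), and Gfap, Lcn2, P2ry2, Opn1sw, Aqp4, Arg1, Slfn4 and Col3a1 always. Other list members and Col5a1 are given as values chosen after they were seen. The comparison and the 32 lists were chosen with earlier results of these data known. Alternatives were no block, a random block, all 18 arrays, arrays left out, quantile normalization, equal medians, brighter probe sets, a trended robust eBayes and the mean of a gene's probe sets.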

Additional observations from a re-analysis of the deposited data

Results flagged for a closer look

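The change between 24 h and 7 d differed between INS37217 and saline, by the limma test of the interaction itself, for each of the 30 called genes named by rule. With 3 arrays in a group, no test for a single array far from the others was made. Among interferon-induced genes the log2 interaction was -2.60 for Slfn4, -1.31 for Ifi44l, -1.22 for Oasl2, -1.14 for Rsad2, -1.01 for Ifit3, -0.88 for Ifit2, -0.85 for Slfn1, -0.85 for Parp14 and -0.82 for Gbp3. Reactive glia genes went both ways, with -0.90 for Steap4, -0.70 for Lcn2 and 1.23 for Serpina3n. Among matrix genes it was 2.36 for Col1a1, 2.26 for Col1a2, 1.61 for Col3a1, 1.48 for Fbln2, 1.48 for Postn, 1.26 for Bgn, 1.22 for Ecm1 and 1.21 for Fn1. For contractile and fibroblast genes it was 1.32 for Tagln, 0.87 for Serpinf1, 0.79 for Tpm2 and 0.67 for Mgp. For macrophage genes it was 2.10 for Arg1, 1.10 for Cd36 and 0.71 for Gpnmb. For the remaining genes it was 0.89 for Arr3, 0.87 for Alas2 and 0.72 for Gpx3.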

How the results depend on the processing

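The call counts, 55 in all with 40 above and 15 below 0, depend on the replicate block. Without the block limma called 1 probe set, 1 above and 0 below 0, and 342 had an unadjusted p under 0.05. With a random replicate block (correlation 0.617) it called 36, 27 above and 9 below, and all 36 were among the 55. Among brighter probe sets (mean above the median) 9 were called below 0, where fewer were tested. With all 18 arrays, quantile normalization, equal medians and a trended robust eBayes the count was 52 to 66. With arrays left out it was 3 to 78, with 2 to 54 above and 1 to 24 below. The low end came from leaving out replicate 3 (3 calls, 2 above and 1 below) or replicate 2 (9 calls, 8 above and 1 below) in all groups, chosen after seeing the data, and leaving out replicate 1 in all groups gave 37, with 24 above. Single omissions gave 25 and 28 without saline 24 h replicates 1 and 3, 23 (4 below 0) and 27 without saline 7 d replicates 1 and 3, 21 and 25 without INS37217 24 h replicates 2 and 3, and 22 and 24 without INS37217 7 d replicates 2 and 3. They gave 24 below 0 without INS37217 24 h replicate 1 or INS37217 7 d replicate 1. Of the 30 named genes 14 were called in every single omission and 16 lost the call in at least 1, up to 15 genes at once without INS37217 24 h replicate 2 or 3, and no named gene changed sign in any setting run. Without the block 29 of the 30 lost the call, with the random block 9. The median of the microglia list, 0.05, was -0.04 without replicate 2 in all groups. That of the bipolar cell list, -0.01, ranged from -0.03 to 0.02 with arrays left out, and was 0.00 to 0.02 without replicate 1 or 2 in all groups, INS37217 24 h replicate 3, or INS37217 7 d replicate 2 or 3. Among brighter probe sets 11 list medians moved by more than the spread over replicate numbers, among them wound-healing macrophages (0.58), neutrophils (-0.42), complement (0.25) and microglia (0.16), and endothelium (0.05), pigment epithelium (0.10) and surface epithelium (0.05) changed sign. Up to 4 list medians moved with 1 array left out, and 5 without replicate 3 in all groups. With the mean of a gene's probe sets the contractile median was 0.30. The causes of these changes were not tested. Dim probe sets limit what can be seen of falls toward the floor.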

Other observations

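At 2 h after injection, outside the comparison, 25 of the 30 called genes named by rule had a difference of INS37217 minus saline between -0.39 and 0.38 in group means of 3 arrays, given with no test. The other 5 differed by more. Alas2 stood at -1.37, Gpnmb at -0.58 and Tagln at -0.55, while Lcn2 stood at 0.79 and Steap4 at 0.53. Slfn4 had 4.08, 3.97 and 3.94 in INS37217 2 h retinas and 4.11, 3.96 and 3.98 in saline 2 h retinas, close to its values at 7 d.

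The probe set 1449254_at, for which the tables used here give no gene, had an interaction of 2.24 (SE 0.16, limma adjusted p = 2.7e-06), next in size to Col1a1 and Col1a2. INS37217 minus saline was 2.00 at 7 d and -0.24 at 24 h for it. Its time change was 1.07 with INS37217 and -1.17 with saline.

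Nerve cell lists had 0 called, where 0.161% of all genes were called above 0 and 0.0888% below, so this says little about them. The median interaction was -0.12 for 15 ganglion cell genes, 12 of them negative, and -0.08 for 18 amacrine and horizontal cell genes, 14 of them negative. It was 0.06 for 34 cell cycle genes and -0.10 for 29 immediate early genes.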
